A study of Mus musculus with 6 samples.

Results

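The phospholipases A2 and D examined here are 10 genes, Pla2g7, Pla2g4a, Pla2g4e, Pla2g6, Pla2g12a, Pla2g15, Gpld1, Pld1, Pld2 and Pld3, of the 37620 mouse genes counted in the ribosomal profiling of adult dentate gyrus. They were listed by name, and all 10 were above 1 CPM (read counts scaled to a common library size) in at least 1 sample, as were 15056 genes in all. The list was drawn up with the comparison of Klf9 f/f with Klf9 +/+ known, because the study named Pla2g7, Pla2g4e and Gpld1 from its own calls on these samples. The genotype differences of the 10 genes are therefore given as a description, with no p-value. The profiling asked which mRNAs are on ribosomes of radial-glial neural stem cells (RGLs) that have lost Klf9, a Kruppel-like transcription factor.

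All mice carried Gli1CreERT2 and 1 floxed Rpl22HA allele (Rpl22HA f/+), and they were either Klf9 +/+ or Klf9 f/f. Mice of 2 to 3 months received 3 injections of tamoxifen (TAM), which activates the Cre, and tissue was taken 4 days after the last injection. Cre recombination in cells with Gli1 promoter activity adds an HA tag to the ribosomal protein RPL22 in both genotypes and, in Klf9 f/f mice, removes part of Klf9. Tagged ribosomes were pulled down with an anti-HA antibody (RiboTag), and the mRNA on them was sequenced. There were 3 samples of each genotype. Each pooled the 6 dentate gyri of 3 mice, so that single mice cannot be compared, and p-values measure the spread between pools. Sample titles name 2 library series: replicates 1 and 2 of each genotype belong to series YTa22 and replicate 3 of each belongs to series YTa32. In such pulled-down bulk samples, more cells of a type and more mRNA per cell cannot be told apart.

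Phospholipases A2 release the middle fatty acid of a phospholipid and leave a lysophospholipid. When the fatty acid is arachidonate, it feeds the synthesis of prostaglandins and other eicosanoids. Phospholipases D cut on the other side of the phosphate, and Pld1 and Pld2 make phosphatidate from phosphatidylcholine in this way. In the brain, both families take part in membrane turnover, and Pla2g7 encodes an enzyme that inactivates platelet-activating factor (PAF).

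Between 21594714 and 66343759 reads per sample were counted on genes, and the shallowest samples were those of series YTa32. Per-sample values are given here in the order of replicates 1, 2 and 3. The targeted gene itself, Klf9, had 201, 204 and 139 CPM in the Klf9 +/+ samples and 114, 121 and 120 CPM in the Klf9 f/f samples. The genotypes did not overlap, and the log2 fold change of Klf9 f/f over Klf9 +/+ was −0.59 (standard error, SE, 0.15), so that much of the Klf9 signal remained. Counts cover the whole gene and recombination removes only part of it, so they do not measure how often Klf9 was recombined. The paper gives separate estimates of recombination, by qRT-PCR and by in situ hybridization. The log2 difference of Klf9 was −0.78 in series YTa22 and −0.21 in series YTa32. CPM values are scaled by the TMM factors of edgeR throughout. Markers of the cells that the pull-down was aimed at were present: summed over 8 radial glia markers the level was 4226 to 5357 CPM in Klf9 +/+ and 5056 to 6718 CPM in Klf9 f/f. Markers of other cell types were present too, with none at 0 in any sample. Of these types, astrocytes are targeted by Gli1CreERT2 along with RGLs, as the paper states. Summed over 12 astrocyte markers the level was 11646 to 15907 CPM in Klf9 +/+ and 15220 to 17381 CPM in Klf9 f/f, and 12 of 12 had a higher fitted level in Klf9 f/f. Markers of the choroid plexus, the epithelium that secretes cerebrospinal fluid, summed to 146, 729 and 2742 CPM in Klf9 +/+, but to 30.9, 27 and 422 CPM in Klf9 f/f. All 13 of these markers had a lower fitted level in Klf9 f/f, as had 11 of 11 endothelial and mural and 9 of 9 meningeal fibroblast markers.

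A single paralog accounted for most of the mRNA of these 10 genes. Levels were compared between genes per length, as CPM divided by the kilobases of annotated exon (RPKM). Pla2g7 stood at 278, 245 and 216 RPKM in the Klf9 +/+ samples, a mean of 246 ± 31.1 (SD, n = 3), and lay at the 98.6th percentile of all genes tested. It made up 65.8% of the summed level of the 10 genes, 374 RPKM, with 64% to 66.7% in single samples. Pld3, a lysosomal nuclease that has the phospholipase D fold, came next at 58.4 ± 5.89 RPKM, so that Pla2g7 was 4.21-fold higher. Every Klf9 +/+ sample of Pla2g7 lay above every such sample of Pld3.

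Gpld1, the secreted enzyme that cuts glycosylphosphatidylinositol (GPI) anchors and frees proteins from the cell surface, and Pla2g12a, a secreted phospholipase A2, shared the next place. Their levels in Klf9 +/+ were 25.6 ± 2.53 and 24.7 ± 4.94 RPKM, and the samples overlapped. A lower step held 3 genes. Pla2g15, the lysosomal phospholipase A2, stood at 6.46 ± 1.14 RPKM, Pld2 at 5.01 ± 1.16 RPKM and Pla2g6, the calcium-independent phospholipase A2, at 4.26 ± 0.499 RPKM. Neighbours in this step overlapped, and the step as a whole lay between the 41.6th and the 50.9th percentile of all genes tested.

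The 3 lowest genes included Pla2g4a and Pla2g4e, which belong to the cytosolic, calcium-dependent group 4. Pld1 stood at 1.92 ± 0.663 RPKM and overlapped in Klf9 +/+ with Pla2g4a at 1.09 ± 0.659 RPKM. Pla2g4a encodes the cytosolic phospholipase A2 that releases arachidonate for eicosanoid synthesis. Pla2g4e, which encodes a calcium-dependent N-acyltransferase, was lowest at 0.319 ± 0.147 RPKM, at the 4.6th percentile of all genes tested, and Pla2g7 was 771-fold higher. In Klf9 f/f the order of the 10 means was the same, with Pla2g7 at 319 ± 50.4 RPKM and 68.4% of the sum. There, Pld1 and Pla2g4a no longer overlapped, whereas Pla2g4a and Pla2g4e did.

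**Figure D1:**
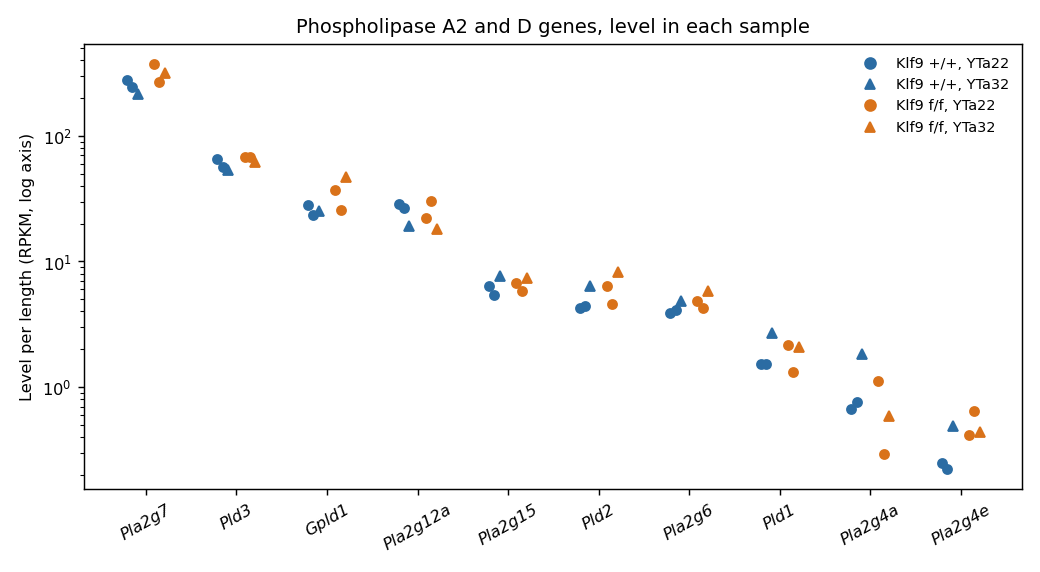
Level per length (RPKM, logarithmic axis) of the 10 phospholipase genes in each of the 6 samples, ordered by their mean in Klf9 +/+; blue is Klf9 +/+, orange is Klf9 f/f, circles are series YTa22 and triangles series YTa32. Pla2g7 lies above all others in every sample, from 216 to 372 RPKM, and Pla2g4e and Pla2g4a lie lowest.

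Pla2g7 (ENSMUSG00000023913) occupies positions 43705047 to 43749150 of chromosome 17 in mm9, on the plus strand, and its annotated exons cover 2905 bp. Counting ignored strand, and 319 bp of these exons, or 11%, overlap 1700071M16Rik on the opposite strand. Reads that HTSeq could not assign to a single gene are in its summary line of ambiguous reads, which was left out. The RPKM of Pla2g7 was still divided by all 2905 bp. The gene 1700071M16Rik itself was counted at 0.383 to 1.25 CPM. Gpld1 (ENSMUSG00000021340) occupies positions 25035021 to 25082622 of chromosome 13, also on the plus strand, and its exons overlap no other gene. Pld3 (ENSMUSG00000003363) occupies 28317019 to 28338237 of chromosome 7 on the minus strand, Pld1 (ENSMUSG00000027695) 27837602 to 28032284 of chromosome 3 on the plus strand and Pld2 (ENSMUSG00000020828) 70353566 to 70371612 of chromosome 11 on the plus strand. The cytosolic genes are far apart, Pla2g4a (ENSMUSG00000056220) at 151676748 to 151808420 of chromosome 1 and Pla2g4e (ENSMUSG00000050211) at 119992148 to 120071071 of chromosome 2, both on the minus strand. Pla2g6 (ENSMUSG00000042632) occupies 79116658 to 79158820 of chromosome 15 on the minus strand, Pla2g12a (ENSMUSG00000027999) 129581524 to 129598739 of chromosome 3 and Pla2g15 (ENSMUSG00000031903) 108674299 to 108688613 of chromosome 8, the last 2 on the plus strand. Gene lengths rest on the GENCODE M1 annotation. With the longest transcript as the length, Pla2g7 made up 68.8% of the sum and kept the first place, while Gpld1 traded places with Pla2g12a, and Pla2g15 with Pld2.

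Other genes with phospholipase A2 or D activity, or of the same families, were spread more widely. Of 25 such genes, 15 passed the filter on low counts. Prdx6, a peroxiredoxin with phospholipase A2 activity, stood at 498 ± 103 RPKM in Klf9 +/+ and so above Pla2g7, with samples of 2251, 1718 and 1521 CPM. The group 4 gene Pla2g4b also passed, at 2.36 RPKM in Klf9 +/+ and so above Pla2g4a and Pla2g4e. Among the 10 that did not pass were the secreted enzymes Pla2g2c, Pla2g2d, Pla2g2e, Pla2g10 and Pla2g12b and the cytosolic Pla2g4c, Pla2g4d and Pla2g4f. Pla2g1b and Pla2g2a had 0 counts in all 6 samples.

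The stretches of DNA before the starts of these genes differ in the short motifs to which factors of the Klf9 family are known to bind, the GC box and the CACCC box. The 250 bases before the annotated start are shown for Pla2g7 at chr17:43704797-43705046 (plus strand), Gpld1 at chr13:25034771-25035020 (plus strand) and Pla2g4a at chr1:151808421-151808670 (minus strand), all in mm9. The first is the dominant gene, the second a gene the study named, and the third a gene of low level. Each reads 5′ to 3′ along the gene, and capitals mark GGGCGG or CACCC on either strand.
Pla2g7: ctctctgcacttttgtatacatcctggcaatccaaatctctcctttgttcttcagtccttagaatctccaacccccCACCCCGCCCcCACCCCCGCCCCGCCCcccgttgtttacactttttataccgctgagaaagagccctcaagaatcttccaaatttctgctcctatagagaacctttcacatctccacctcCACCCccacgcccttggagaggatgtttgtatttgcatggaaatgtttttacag
Gpld1: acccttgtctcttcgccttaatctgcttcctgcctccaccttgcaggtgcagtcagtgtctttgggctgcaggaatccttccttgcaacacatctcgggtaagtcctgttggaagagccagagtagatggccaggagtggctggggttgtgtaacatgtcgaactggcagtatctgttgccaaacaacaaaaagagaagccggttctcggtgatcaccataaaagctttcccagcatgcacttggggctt
Pla2g4a: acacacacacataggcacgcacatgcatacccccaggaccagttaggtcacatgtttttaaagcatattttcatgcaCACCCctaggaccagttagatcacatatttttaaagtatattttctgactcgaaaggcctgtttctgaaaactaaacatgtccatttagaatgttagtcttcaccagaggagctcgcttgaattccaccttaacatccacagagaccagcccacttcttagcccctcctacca

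The sequence before Pla2g7 holds 3 matches to GGGCGG and 3 to CACCC, some of which overlap, and that of Pla2g4a holds 1 match to CACCC. The sequence before Gpld1 holds neither string of letters. Over the 10 genes, 6 sequences before GENCODE starts hold GGGCGG and 7 hold CACCC on either strand. At RefSeq starts the 10 genes have 13 such sequences, of which 6 hold GGGCGG and 9 hold CACCC. In 32536 distinct mouse sequences of 250 bases before RefSeq starts (GRCm38.p6 table), 33% hold GGGCGG and 52.1% hold CACCC. A match is a string of letters and not a measured binding site. RefSeq places the start of Pla2g7 353 bases downstream of the GENCODE start used for the printed sequence, and the 250 bases before that RefSeq start hold 1 match to GGGCGG and 2 to CACCC.

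Between genotypes, 8 of the 10 genes had a higher fitted level in Klf9 f/f and 2 a lower one. Pld1, counted as higher, had a log2 fold change of only 0.003. None of the 10 had its 3 Klf9 f/f samples all above or all below the 3 Klf9 +/+ samples. The share of all genes tested was not counted for these statements, so neither can be read as particular to the 10. The fit was edgeR's quasi-likelihood model with the library series as a term, and log2 fold changes are Klf9 f/f over Klf9 +/+. Over the 10 genes the log2 fold change had a median of 0.20, against 0.001 over all genes tested. The threshold of the study's methods, a change of 1.2-fold with an unadjusted p under 0.05, was passed by 2 of the 10, Pla2g7 and Gpld1, both higher in Klf9 f/f. Of all genes tested, 4.32% passed it, 1.82% higher and 2.50% lower. Over all 15056 genes, 0 had an adjusted p under 0.05 by the quasi-likelihood test, 650 had an unadjusted p under 0.05, and DESeq2 gave 39 and the likelihood-ratio test 58 genes at an adjusted p under 0.05, none of them among the 10. With no filter beyond 1 count the quasi-likelihood test gave 334 genes at an adjusted p under 0.05, again with none of the 10.

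Pla2g7 was at 807, 711 and 627 CPM in Klf9 +/+. In Klf9 f/f it was at 1080, 788 and 914 CPM. Klf9 f/f replicate 2 lay below the highest Klf9 +/+ sample, and the other Klf9 f/f samples lay above all Klf9 +/+ samples. The log2 fold change was 0.38 (SE 0.16), with a difference of 0.28 in series YTa22, where the genotypes overlapped, and 0.54 in series YTa32, which has 1 sample of each. Leaving out single samples moved the value between 0.27 without Klf9 f/f replicate 1 and 0.52 without Klf9 f/f replicate 2. The threshold of the methods was no longer passed without Klf9 f/f replicate 1, Klf9 +/+ replicate 2, Klf9 f/f replicate 3 or Klf9 +/+ replicate 3. The paper also reports a higher Pla2g7 level by qRT-PCR on a separate replicate of pulled-down mRNA, which is not part of these counts.

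Gpld1 was at 101, 83.4 and 90.6 CPM in Klf9 +/+ against 134, 92.1 and 170 CPM in Klf9 f/f. Here too Klf9 f/f replicate 2 lay within the Klf9 +/+ range, and the highest value was the Klf9 f/f sample of series YTa32. The log2 fold change was 0.49 (SE 0.19), with 0.27 in series YTa22 and 0.91 in series YTa32. Without Klf9 f/f replicate 3 it was 0.29 and without Klf9 +/+ replicate 3 it was 0.28, against 0.69 without Klf9 f/f replicate 2. The threshold was lost without Klf9 f/f replicate 1, Klf9 +/+ replicate 2, Klf9 f/f replicate 3 or Klf9 +/+ replicate 3.

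The true phospholipases D, Pld1 and Pld2, ranged from 11.4 to 50.9 CPM over the 6 samples. Pld2 stood at 26.1, 27.5 and 39.2 CPM in Klf9 +/+ against 39.3, 28.1 and 50.9 CPM in Klf9 f/f, a log2 fold change of 0.35 (SE 0.15). Within each library series its Klf9 f/f samples were the higher ones, although in series YTa22 the gap was between 27.5 and 28.1 CPM. Pld1 stood at 13.2, 13.2 and 23 CPM in Klf9 +/+ against 18.5, 11.4 and 17.9 CPM in Klf9 f/f, and its log2 fold change was 0.00 (SE 0.21). The exons of Pld2 overlap Gm10418 on the opposite strand over 438 bp, or 7.1%.

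Pld3 was at 190, 167 and 156 CPM in Klf9 +/+ against 199, 199 and 182 CPM in Klf9 f/f. Klf9 f/f was again the higher genotype in each library series, and the log2 fold change was small, at 0.18 (SE 0.12). The same held for Pla2g6, with 19.3, 20.3 and 24 CPM in Klf9 +/+, 24, 21.1 and 28.9 CPM in Klf9 f/f and a log2 fold change of 0.21 (SE 0.14). Pla2g6, Pld2 and Pld3 were thus the 3 of 10 genes with Klf9 f/f above Klf9 +/+ within each series, which was so for 7.78% of all genes tested. None of the 10 had Klf9 f/f below Klf9 +/+ within each series, against 5.53% of all genes tested.

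For the 2 remaining organelle-bound or secreted enzymes the genotypes overlapped. Pla2g12a stood at 47.6, 44.3 and 32 CPM in Klf9 +/+ against 37.1, 50.5 and 30.1 CPM in Klf9 f/f, with a log2 fold change of −0.08 (SE 0.15). Pla2g15 stood at 17.3, 14.5 and 20.6 CPM in Klf9 +/+ against 18.2, 15.7 and 19.9 CPM in Klf9 f/f, with a log2 fold change of 0.05 (SE 0.16). Neither order of genotypes held in both library series for Pla2g15, whose differences were 0.10 in series YTa22 and −0.05 in series YTa32.

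The cytosolic enzymes varied most among samples. Pla2g4a stood at 4.29, 4.82 and 11.8 CPM in Klf9 +/+ against 7.1, 1.87 and 3.74 CPM in Klf9 f/f, from 84 to 465 counts per sample. Its log2 fold change of −0.54 (SE 0.49) became −1.44, past the threshold, without Klf9 f/f replicate 1 and −0.02 without Klf9 f/f replicate 3 or without Klf9 +/+ replicate 3. The highest sample, Klf9 +/+ replicate 3, was also the one with the highest summed choroid plexus, endothelial and mural, and meningeal fibroblast markers, at 2742, 1109 and 1951 CPM, and the part of these cells in its level was not tested. Pla2g4e stood at 1.72, 1.55 and 3.4 CPM in Klf9 +/+ against 2.91, 4.5 and 3.07 CPM in Klf9 f/f, from 69 to 224 counts per sample. In series YTa22 both Klf9 f/f samples lay above both Klf9 +/+ samples, a log2 difference of 1.13, whereas in series YTa32 the Klf9 f/f sample lay below, at −0.14. The fitted log2 fold change of Pla2g4e was 0.76 (SE 0.35). It was 1.18 without Klf9 f/f replicate 3, 1.17 without Klf9 +/+ replicate 3 and 0.44 without Klf9 f/f replicate 2. Pla2g4e did not pass the threshold in the main fit, but did so without either sample of series YTa32 and in series YTa22 alone. With all 6 samples it also passed by the likelihood-ratio test and with no filter beyond 1 count, at 0.75 in each. An exon of Gm13997 on the same strand overlaps 153 bp of its exons, or 2.2%.

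**Figure D2:**
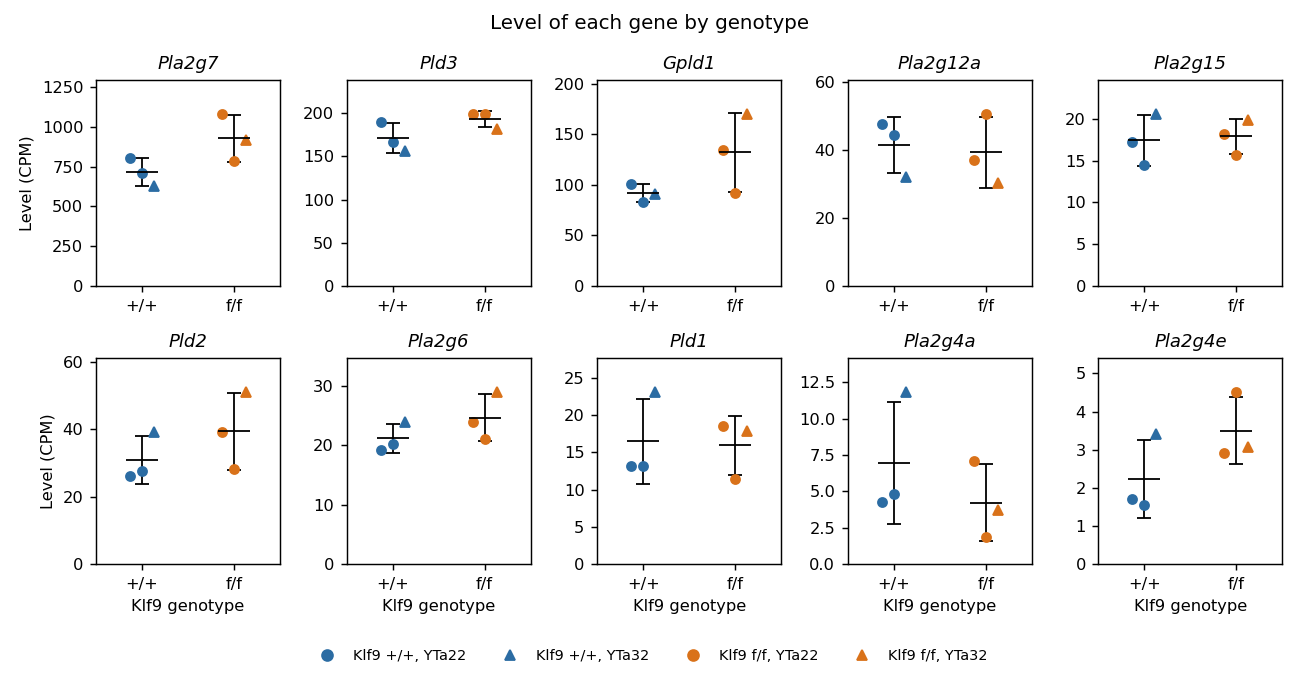
Level (CPM, each axis from 0) of each gene in the 3 Klf9 +/+ and the 3 Klf9 f/f samples, with the mean as a wide line and the SD (n = 3) as bars; circles are series YTa22 and triangles series YTa32. For all 10 genes the range of Klf9 f/f overlaps that of Klf9 +/+, for Pla2g7 because Klf9 f/f replicate 2 (788 CPM) lies below Klf9 +/+ replicate 1 (807 CPM). The share of all genes tested with such overlap was not counted.

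**Figure D3:**
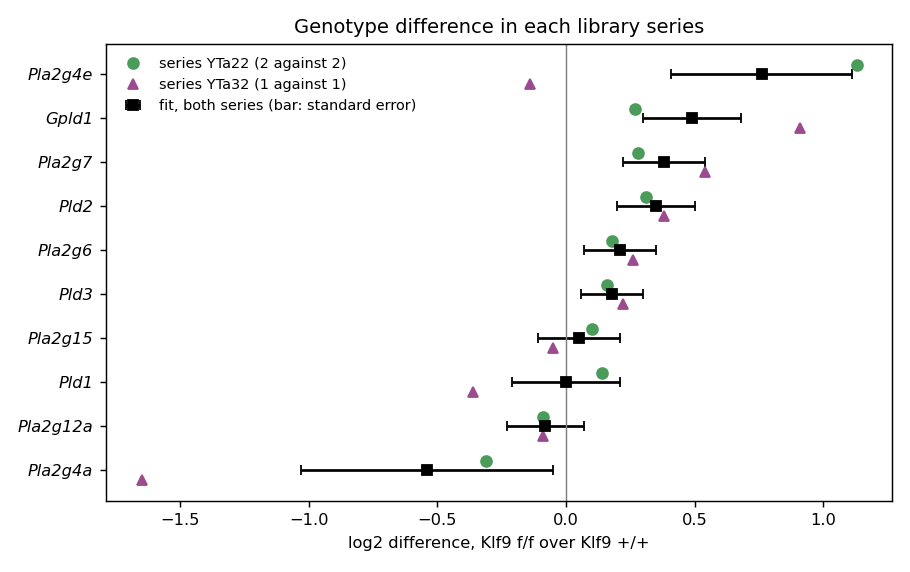
Log2 difference of Klf9 f/f over Klf9 +/+ in series YTa22 (green, 2 samples against 2), in series YTa32 (purple, 1 against 1) and fitted over both (black squares, bars are the SE). Pla2g4e lies at 1.13 in one series and −0.14 in the other, Gpld1 at 0.27 and 0.91, and Pla2g7 at 0.28 and 0.54.

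Whether the genotype difference itself differed between the library series was tested with an interaction term. This term compares the genotype differences of the 2 series, on the same 6 samples from which the study named some of the genes. By edgeR's quasi-likelihood test, 0 of the 10 genes and 0 of all 15056 genes (0%) had an adjusted p under 0.05, and at an unadjusted p under 0.05 there were 0 of the 10 and 231 of all, 1.53%. The largest interactions among the 10 were those of Pla2g4a, −1.64 (SE 0.88), and Pla2g4e, −1.33 (SE 0.67), both with an adjusted p of 1 by edgeR. For Gpld1 the interaction was 0.62 (SE 0.40) and for Pla2g7 0.24 (SE 0.40). With 1 sample of each genotype in series YTa32, these SE leave room for differences larger than the genotype effects themselves.

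For some of the genes the fitted difference between library series was larger than that between genotypes. Pld2 was higher in series YTa32, with a mean of 45 CPM against 30.3 CPM in series YTa22, a log2 difference of 0.57 (SE 0.16, adjusted p = 0.028 by edgeR's quasi-likelihood test). Pla2g12a was lower in series YTa32, with 31 CPM against 44.9 CPM, a log2 difference of −0.53 (SE 0.16, adjusted p = 0.037 by edgeR). These 2 of 10 compare with 29.5% of all genes tested that differed between the series. By adjusted p, Pld1 came next, at 0.54 (SE 0.22, adjusted p = 0.0966), and Pla2g6 at 0.32 (SE 0.15, adjusted p = 0.127), neither past the 0.05 threshold of edgeR's adjusted p. The largest difference in size was that of Pla2g4a, 0.65 (SE 0.52, adjusted p = 0.359 by edgeR), whose SE was also the largest. Pla2g7 was at 847 CPM in series YTa22 and 771 CPM in series YTa32, a log2 difference of −0.15 (SE 0.17, adjusted p = 0.533 by edgeR). The count of 2 was 0 without Klf9 +/+ replicate 1, Klf9 f/f replicate 2, or either sample of series YTa32, 1 without Klf9 +/+ replicate 2, and 4 without Klf9 f/f replicate 1.

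The 5 genes with patterns most like that of Pla2g7 over the 6 samples were of very different level. They were picked as the nearest of many, so that their closeness is not evidence of a link. Their log2 fold changes, from 0.3 to 0.43, share the direction for which the study named Pla2g7. Likeness was measured as the root mean square difference of log2 CPM after each gene was centred on its own mean, among 10379 genes with a mean of at least 10 CPM, for which the median difference from Pla2g7 was 0.349. The smallest differences were those of Cpe (0.0454), which encodes a carboxypeptidase that processes peptide hormones, and Cyp7b1 (0.0496), an oxysterol hydroxylase. Next were Hspa2 (0.0542), a heat shock protein, Egfr (0.0637), the receptor of epidermal growth factor, and Trap1 (0.0662), a mitochondrial chaperone. Cpe stood at 5183, 4558 and 4066 CPM in Klf9 +/+ against 6889, 5374 and 6308 CPM in Klf9 f/f. Egfr stood at 41, 36.1 and 32.9 CPM in Klf9 +/+ against 52.9, 39.4 and 51.4 CPM in Klf9 f/f, with the same order of samples as Pla2g7. Like Pla2g7, Egfr is among the genes that the study called higher on these same samples. Among the other phospholipases, Pld3 (0.168) and Gpld1 (0.235) came nearest to Pla2g7, and Pla2g4a (0.896) was farthest from it.

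Astrocyte markers moved with Pla2g7. In Klf9 +/+ the 12 markers summed to 15907, 12324 and 11646 CPM, and in Klf9 f/f to 17381, 15220 and 17372 CPM, with a median log2 fold change of 0.35 over the markers. Set against this sum, a comparison chosen after the data were seen, Pla2g7 stood at 50.8, 57.7 and 53.8 per 1000 in Klf9 +/+ and at 62.1, 51.8 and 52.6 per 1000 in Klf9 f/f. The log2 difference of these ratios was 0.03 (SE 0.11). For Gpld1 the ratios were 6.38, 6.77 and 7.78 per 1000 in Klf9 +/+ and 7.68, 6.05 and 9.78 per 1000 in Klf9 f/f, a log2 difference of 0.15 (SE 0.14). For Pld2 it was 0.00 (SE 0.19), for Pld3 −0.16 (SE 0.12) and for Pla2g4e 0.38 (SE 0.53). The genotypes overlapped for each of the 10 genes on this scale, on which the share over all genes was not counted. The paper places Pla2g7 expression in the dentate gyrus in RGLs as well as in astrocytes. The 8 radial glia markers summed to 5357, 4226 and 5234 CPM in Klf9 +/+ against 5907, 5056 and 6718 CPM in Klf9 f/f. Among these 8 markers, 6 had a higher fitted level and 2 a lower one in Klf9 f/f. The median of their log2 changes was 0.06. No ratio to the radial glia sum was taken. How far these marker lists tell astrocytes from RGLs was not tested. Whether more astrocytes, more RGLs or more of each mRNA per cell lay behind the values was not tested.

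**Figure D4:**
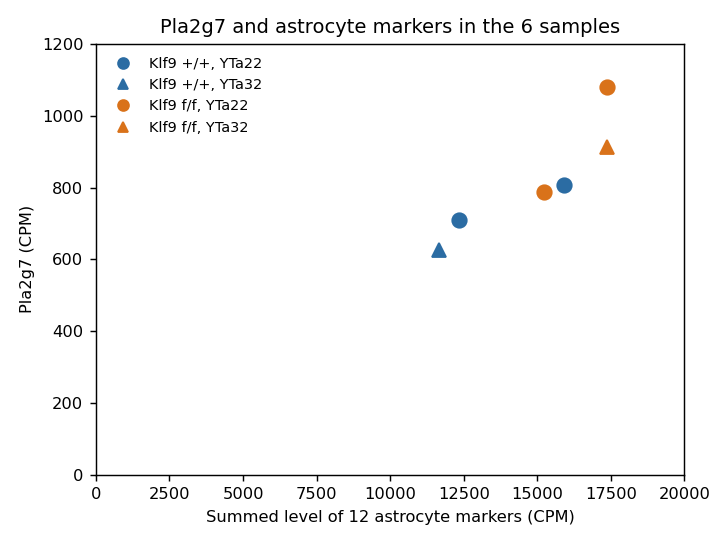
Level of Pla2g7 (CPM) against the summed level of 12 astrocyte markers (CPM) in the 6 samples; blue is Klf9 +/+, orange is Klf9 f/f, circles are series YTa22 and triangles series YTa32. The sample with the lowest marker sum, Klf9 +/+ replicate 3 (11646 CPM), had the lowest Pla2g7 (627 CPM), and the one with the highest sum, Klf9 f/f replicate 1 (17381 CPM), the highest (1080 CPM).

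Around the 10 genes, 133 further genes of phospholipid breakdown, eicosanoid synthesis and phosphatidate turnover were followed, of which 114 passed the filter on low counts. At the threshold of the methods 10 of them, or 8.77%, were higher in Klf9 f/f and 4, or 3.51%, lower, against 1.82% and 2.50% of all genes tested. None had an adjusted p under 0.05 by edgeR's quasi-likelihood test. Their fitted levels were higher for 66 and lower for 48, with a median log2 fold change of 0.02. The lists were written with the study's own calls known, and several of the genes named next, such as Plcd4, Lcat and Pnpla7, are among those the study picked on these same samples, so that their direction is not independent evidence.

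Of 16 phospholipase C genes, whose products cleave phosphoinositides into second messengers, 2 passed the threshold. Plcd4 stood at 48, 42.3 and 42.6 CPM in Klf9 +/+ against 83.1, 50.2 and 56.5 CPM in Klf9 f/f, a log2 fold change of 0.51 (SE 0.19). The other was Plcb3, at 0.38 (SE 0.17), and the highest level per length in this list was that of Plcd1, 16.7 ± 2.47 RPKM in Klf9 +/+.

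Among 26 phospholipases A1 and B, lysophospholipases and related hydrolases, 6 passed the threshold with a higher level in Klf9 f/f. Lcat, which esterifies cholesterol on lipoproteins, stood at 125, 109 and 104 CPM in Klf9 +/+ against 159, 138 and 133 CPM in Klf9 f/f, so that the genotypes did not overlap. Mgll, which degrades the endocannabinoid 2-arachidonoylglycerol, stood at 532, 427 and 355 CPM in Klf9 +/+ against 586, 615 and 488 CPM in Klf9 f/f. Their log2 fold changes were 0.35 (SE 0.13) for Lcat and 0.37 (SE 0.14) for Mgll. Pnpla7 at 0.45 (SE 0.15), Lyplal1 at 0.49 (SE 0.15) and Abhd4 at 0.29 (SE 0.13) had Klf9 f/f above Klf9 +/+ within each library series. Plbd1, at 0.384, 0.157 and 5.16 CPM in Klf9 +/+ and 3.24, 3.02 and 2.85 CPM in Klf9 f/f, did so in series YTa22 and not in series YTa32.

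In the same list, 2 genes were lower. Gdpd3, a lysophospholipase D, had 162, 158 and 1 counts in Klf9 +/+ and 7, 3 and 0 counts in Klf9 f/f, with an adjusted p of 0.0683 by edgeR, the smallest of all genes tested. Its Klf9 +/+ sample of series YTa32 was as low as the Klf9 f/f samples. Enpp2, which encodes autotaxin, the secreted lysophospholipase D that makes lysophosphatidate, stood at 127, 278 and 1437 CPM in Klf9 +/+ against 162, 87.2 and 368 CPM in Klf9 f/f, a log2 fold change of −1.12 (SE 0.37). Its highest samples in both genotypes were those of series YTa32, in which the choroid plexus markers were also highest, at 2742 and 422 CPM; the part of the choroid plexus in the level of Enpp2 was not tested.

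Of 17 tested genes of eicosanoid synthesis, Ptgds alone passed the threshold. Ptgds, the brain's prostaglandin D synthase, stood at 15852, 11075 and 12932 CPM in Klf9 +/+ against 10353, 6854 and 8821 CPM in Klf9 f/f. The genotypes did not overlap, with a log2 fold change of −0.61 (SE 0.21), and meningeal fibroblast markers, whose cells are known to make Ptgds, summed to 945, 1119 and 1951 CPM in Klf9 +/+ and to 1192, 623 and 1148 CPM in Klf9 f/f. Their part in the level of Ptgds was not tested, nor was that of other cell types with lower markers in Klf9 f/f, such as the choroid plexus. Among the other phospholipases A2 and D, the secreted Pla2g5 alone passed it, at 0.323, 1.06 and 4.87 CPM in Klf9 +/+ and 0.504, 0.261 and 0.668 CPM in Klf9 f/f, again highest in Klf9 +/+ replicate 3.

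Enzymes that put fatty acids back on lysophospholipids were represented by Mboat7, at 0.31 (SE 0.13), and Agpat3, at 0.28 (SE 0.12), which were the 2 of 19 genes of reacylation and lysophospholipid receptors past the threshold, both higher in Klf9 f/f within each series. The receptor Lpar1 was the highest gene of that list per length, at 31.3 ± 4.48 RPKM. None of the 21 genes of phosphatidate turnover and phospholipase D activation passed the threshold, among them Plpp3, a phosphatidate phosphatase, at 482 ± 124 RPKM. The count of 10 higher genes was 4 without Klf9 f/f replicate 1, Klf9 f/f replicate 3 or Klf9 +/+ replicate 3 and 2 without Klf9 +/+ replicate 2. The count of 4 lower genes was 8 without Klf9 f/f replicate 1 and 2 without Klf9 f/f replicate 2.

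**Figure D5:**
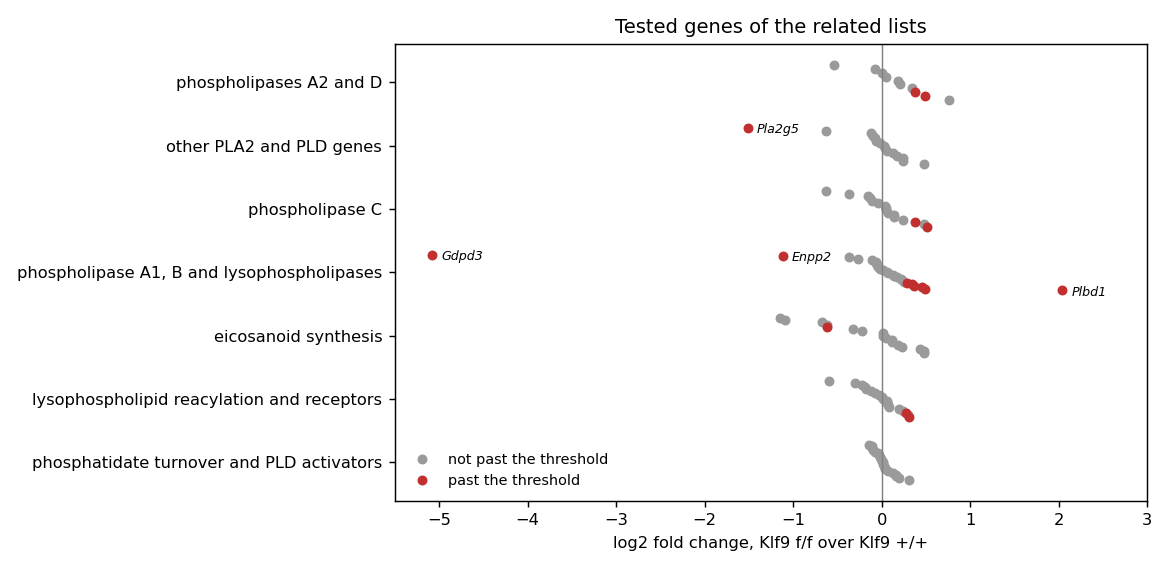
Log2 fold change, Klf9 f/f over Klf9 +/+, of each tested gene in the 10 phospholipases A2 and D and in 6 related lists; red points passed the threshold of the methods and grey points did not, and the vertical spread within a list has no meaning. Most points lie near 0, and the 114 tested genes of the 6 related lists have a median of 0.02.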

How the data were processed

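Ribosome-bound mRNA was measured in 3 Klf9 +/+ and 3 Klf9 f/f samples, grouped by the genotype in their labels. Per the labels and the methods, the authors mapped reads with STAR to mm9 and used the unstranded mode of HTSeq to count reads for each gene; the deposited values are whole-number counts with no normalization. The 5 summary lines of HTSeq, which hold 16.4% to 26.6% of each file's total, were left out. Of 37620 Ensembl genes, 37205 were named from GENCODE M1. Alignment and counting were not repeated.

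The 15056 genes with more than 1 CPM in any sample entered edgeR 4.0.16 (R 4.3.3), with TMM factors and the quasi-likelihood F-test (glmQLFit, glmQLFTest), with library series and genotype as terms, 3 residual degrees of freedom and Benjamini-Hochberg adjustment. The SE of a log2 fold change is its size over the square root of F. The threshold of the methods is 1.2-fold with an unadjusted p under 0.05. RPKM used the union of annotated exons. Ratios to the astrocyte marker sum were fitted with the same terms by least squares on the log2 scale. The scripts were checked on simulated counts. The 10 genes, the related lists and the markers were chosen with earlier results of these data known. Genes named are the 10, Klf9, the 5 genes most like the highest member, and from each related list those past the threshold and the highest per length. Alternatives were a fit without the series term, the likelihood-ratio test, DESeq2 1.42.0, other size factors and filters, series YTa22 alone, the longest transcript as length, and each sample left out in turn. Figures were drawn with matplotlib 3.10.9.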

Additional observations from a re-analysis of the deposited data

Results flagged for a closer look

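Pla2g4e differed in opposite directions in the 2 library series. In series YTa22 both Klf9 f/f samples, at 2.91 and 4.5 CPM, lay above both Klf9 +/+ samples, at 1.72 and 1.55 CPM, a log2 difference of 1.13. In series YTa32 the Klf9 f/f sample, at 3.07 CPM, lay below the Klf9 +/+ sample, at 3.4 CPM, a log2 difference of -0.14 with 1 sample of each genotype. The test of the difference between the series gave an interaction of −1.33 (SE 0.67), with an adjusted p of 1 by edgeR's quasi-likelihood test over 15056 genes. The values rest on 69 to 224 counts per sample.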

How the results depend on the processing

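Of 150 recomputed log2 fold changes of the 10 phospholipases, 15 for each gene, 128 moved by less than the SE of the main fit and 22 by more. Pla2g7 ranged from 0.27 to 0.52 over 14 other settings and passed the threshold of the methods in 6 of them, and Gpld1 ranged from 0.28 to 0.69 and passed in 8. Pla2g4e, which did not pass in the main fit, ranged from 0.44 to 1.18 and passed in 5. Pla2g4a and Pld2, also not past it in the main fit, passed in 2 each. Pld1 changed sign in 10, Pla2g15 in 2 and Pla2g12a in 1. Relative to the astrocyte marker sum, added after the data were seen, the values were 0.03 for Pla2g7 and 0.15 for Gpld1. In that setting each of the 10 genes moved by more than the SE of its main fit.

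Without the series term, 50 genes of all tested were called higher and 163 lower, against 274 and 376, and 1 and 2 related lipid genes, against 10 and 4. With no filter beyond 1 count there were 513 higher and 926 lower, and 8 related genes lower. In series YTa22 alone, 163 were higher and 202 lower, with 4 related genes higher. DESeq2 called 7 related genes lower and the filter of CPM above 1 in at least 3 samples 2. Leaving out single samples gave 130 to 493 genes higher and 209 to 719 lower, 2 to 10 related genes higher and 2 to 8 lower, and 0 to 4 phospholipases that differed between the series. Genes with an adjusted p under 0.05 between genotypes numbered 0 to 15 with single samples left out, 13 in series YTa22 alone and 334 with no filter beyond 1 count, with 0 of the 10 phospholipases in each. With upper-quartile factors 1 differed between the series. With the longest transcript as length the share of Pla2g7 was 68.8%. The causes were not tested. The series term ties replicate 3 of each genotype, the samples of series YTa32. No paired analysis was possible because the replicate numbers are running numbers within each genotype, and within series YTa22 nothing in the labels pairs a Klf9 +/+ with a Klf9 f/f sample. Series YTa32 holds 1 sample of each genotype, so it gives no spread of its own, and genes of few counts, such as Pla2g4e, are the least precise.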
